A study of Mus musculus with 6 samples.

Results

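The genes described here encode the sensors that detect DNA and RNA in the cytosol, with the adaptors and enzymes that pass on or restrain their signal. They were taken by symbol as Ddx58, Ifih1, Dhx58, Mavs, Mb21d1, Tmem173, Zbp1, Eif2ak2, Adar and Trex1. All 10 were found among the 35869 genes listed, and all 10 reached the level required for testing. The question was whether the RNA level of these genes moved when Chaf1b was deleted in leukaemia cells. Of the 10 genes, 2 rose (Ifih1 and Eif2ak2) and 0 fell.

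The cells were mouse acute myeloid leukaemia cells made with a retrovirus carrying MLL-AF9, an oncogenic fusion, and their polyadenylated RNA was sequenced in bulk. All 6 libraries came from clones with floxed Chaf1b alleles that had been transduced with CreERT2, a form of Cre held outside the nucleus until an oestrogen receptor ligand binds it, and all cells grew in medium with SCF, IL6 and IL3. The 3 KO libraries were from cells given β-estradiol and the 3 WT libraries from cells given ethanol vehicle, with lysis 48 hours after induction. WT cells therefore also carried the floxed alleles and CreERT2, and because only KO cells received β-estradiol, the ligand and the deletion cannot be told apart. The labels do not say which clone or culture each library came from, so p-values measure the spread between these libraries, which may be technical.

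Cytosolic double-stranded RNA is bound by RIG-I (encoded by Ddx58) and MDA5 (Ifih1), which signal through the mitochondrial adaptor MAVS, while cytosolic DNA activates cGAS (Mb21d1), whose cyclic dinucleotide product activates STING (Tmem173). Both routes activate the kinases TBK1 and IKKε and the transcription factors IRF3 and IRF7, which drive type I interferon genes. Interferon acts through its receptors on a promoter element called the ISRE, and several of the sensor genes are themselves interferon-stimulated.

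Values are TPM, in which reads are divided by transcript length and each library is brought to the same sum, rounded to 1 decimal by the authors. TPM keeps no depth, so the counting error is unknown. Fold changes are differences of log2(TPM + 1), KO minus WT, and a gene is said to have risen or fallen where limma's adjusted p, over all 13575 genes tested, was under 0.05. By that rule 12.9% of tested genes were higher and 6.11% lower in KO (19% in all). Chaf1b itself was at 17.7, 14.4 and 14.2 TPM in the KO libraries and 48.6, 49.0 and 50.6 TPM in WT (log2 fold change -1.62, adjusted p = 0.0058; 0.0698 without KO replicate 3). All 12 markers of the leukaemia's identity, among them Ptprc, Spi1, Hoxa9 and Meis1, were above 1 TPM in every library, but 4 of the 12 changed in KO. Mpo and Elane, granule proteins of early myeloid cells, rose from 76.9 to 1854 and from 1359 to 3162 TPM (adjusted p = 0.0150 and 0.0125), and Hoxa9 and Hoxa10 fell (0.0286 and 0.0387). Across tested genes, replicates 2 and 3 of each group were close (Pearson's r 0.998 in both), while replicate 1 stood further off, at 0.991 and 0.992 in KO and 0.984 and 0.986 in WT. WT replicate 1 also has a remark on a replacement in its header, with no explanation.

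Among the RNA sensors, the clearest difference was in Ifih1. Ifih1, which encodes the long double-stranded RNA sensor MDA5 (GRCm38 chr2:62595798-62646255), was at 23, 34.4 and 31.5 TPM in KO replicates 1, 2 and 3 and at 15.2, 17.5 and 16.6 TPM in WT replicates 1, 2 and 3. Every KO value lay above every WT value, and KO replicate 1 was the lowest of the KO libraries. The mean rose from 16.4 ± 1.16 to 29.6 ± 5.92 TPM (SD, n = 3), 1.80-fold, with a log2 fold change of 0.80 (SE 0.15, adjusted p = 0.0225). It was called in 13 of 17 alternative settings. The call was lost when KO replicate 2 or 3 was left out (limma adjusted p 0.0850 and 0.111), or WT replicate 2 or 3 (0.0702 and 0.0820). In those 4 settings limma called 109, 0, 25 and 15 genes in the whole table. In bulk RNA, more cells of a type and more RNA per cell cannot be told apart, here and in the results that follow.

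Ddx58 and Dhx58 gave a less even picture. Ddx58, which encodes RIG-I, the sensor of short RNA with a triphosphate end (chr4:40203773-40239828), was at 21.7, 28.1 and 22.6 TPM in the KO libraries and 20.5, 13.7 and 14.5 TPM in WT. The groups did not overlap, but WT replicate 1 came close to the lowest KO library. The log2 fold change was 0.56 (SE 0.17, adjusted p = 0.0648), and without WT replicate 1 it was 0.73 (adjusted p = 0.0199). With any other single library left out, Ddx58 was at 0.45 to 0.63 (limma adjusted p from 0.0736 to 0.215). Dhx58, which encodes LGP2, the family member without signalling domains (chr11:100694884-100704271), was at 26.5, 31.5 and 27.5 TPM in the KO libraries and 36, 17.5 and 18.8 TPM in WT. WT replicate 1 held the highest value of all 6 libraries, and the other WT libraries the lowest. With all libraries the log2 fold change was 0.30 (95% interval -0.33 to 0.94, adjusted p = 0.438), and without WT replicate 1 it was 0.62 (adjusted p = 0.0191). With any other single library left out, Dhx58 was at 0.12 to 0.35 (limma adjusted p from 0.462 to 0.793). Without WT replicate 1, limma called 35.7% of all tested genes. An antisense gene, Dhx58os, overlaps Dhx58 and was listed at 0 TPM in every library.

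Mavs was the only one of the 10 with a lower mean in KO. Mavs, which encodes the adaptor below RIG-I and MDA5 (chr2:131234063-131248025), was at 12.6, 10.6 and 9.8 TPM in the KO libraries and 14.6, 13.6 and 13.7 TPM in WT. All KO values lay under all WT values, with KO replicate 1 nearest to WT. The log2 fold change was -0.32 (SE 0.10, adjusted p = 0.0608), which misses the threshold. Mavs passed in 5 of 17 alternative settings. Among them were median scaling (-0.38, adjusted p = 0.0337), quantile normalization (-0.41, 0.0365) and the fit without KO replicate 1 (-0.42, 0.0135). Those 2 scalings moved the genes called lower in the whole table from 830 to 1872 and 1722. With any single library but KO replicate 1 left out, Mavs was not called (limma adjusted p from 0.0798 to 0.204).

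No gene of the DNA-sensing arm passed the test with all 6 libraries. Mb21d1, which encodes cGAS (chr9:78430526-78443237), was at 24.1, 25.8 and 24.0 TPM in the KO libraries and 19.2, 25.8 and 25.0 TPM in WT. Its groups overlapped, and WT replicate 1 was the lowest library. The log2 fold change was 0.09 (95% interval -0.19 to 0.36, adjusted p = 0.623), and its sign turned without WT replicate 1 (-0.04). Tmem173, which encodes STING (chr18:35733679-35740554), was at 60.5, 73.6 and 69.8 TPM in the KO libraries and 64.3, 62.7 and 57.8 TPM in WT. KO replicate 1 fell inside the WT range, and the log2 fold change was 0.14 (95% interval -0.07 to 0.34, adjusted p = 0.286). Trex1, the exonuclease that removes cytosolic DNA (chr9:109057933-109059734), was at 30, 32.2 and 31.3 TPM in the KO libraries and 33.1, 29.1 and 30.2 TPM in WT. Its log2 fold change was 0.02 (95% interval -0.14 to 0.18, adjusted p = 0.867). Trex1 overlaps Atrip on the same strand in GENCODE M21, so how reads were divided between these genes is uncertain. Atrip was at 9.4 to 10.4 TPM in the KO libraries and 10.1 to 11.5 TPM in WT.

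Zbp1 had the largest SD of the 10 genes in both groups. Zbp1, which encodes a sensor of left-handed Z-form nucleic acid that can start necroptosis (chr2:173206612-173218923), was at 26.4, 41.1 and 35.1 TPM in the KO libraries and 35.7, 13.3 and 13.5 TPM in WT. WT replicate 1 stood among the KO libraries, 2.66 times the mean of the other WT libraries. The mean was 34.2 ± 7.39 TPM in the KO libraries and 20.8 ± 12.9 TPM in WT (SD, n = 3), a log2 fold change of 0.82 (95% interval -0.12 to 1.76, adjusted p = 0.176). Without WT replicate 1 it was 1.27 (adjusted p = 0.0191), and without replicate 1 of both groups it was 1.44 (adjusted p = 0.0016). In those settings limma called 35.7% and 55.8% of all tested genes. With any other single library left out, Zbp1 was at 0.59 to 0.99 and was not called (limma adjusted p from 0.168 to 0.418).

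Eif2ak2 rose by a small and even amount. Eif2ak2, which encodes PKR, the kinase that halts translation when double-stranded RNA binds it (chr17:78852564-78882573), was at 39.9, 44.0 and 40.7 TPM in the KO libraries and 35.4, 33.4 and 35.0 TPM in WT. The groups did not overlap, and here the WT libraries were alike. The mean rose from 34.6 ± 1.06 to 41.5 ± 2.17 TPM (SD, n = 3), 1.20-fold, with a log2 fold change of 0.26 (SE 0.06, adjusted p = 0.0331). Gm26637, an antisense gene overlapping Eif2ak2, was at 2.9 to 3.3 TPM in the KO libraries and 2.3 to 2.6 TPM in WT, and whether counting used strand was not given. The call was lost when any library but replicate 1 of either group was left out (adjusted p from 0.107 to 0.132). Adar, the enzyme that edits adenosine to inosine in double-stranded RNA and so keeps a cell's own RNA from the sensors (chr3:89715022-89753446), was at 13.2, 13.6 and 12.9 TPM in the KO libraries and 11.6, 12.7 and 12.7 TPM in WT. The groups did not overlap, although the lowest KO value (12.9 TPM) was close to the highest WT value (12.7 TPM), and the log2 fold change was 0.10 (95% interval -0.05 to 0.24, adjusted p = 0.301). Adar makes a long interferon-inducible form and a shorter constitutive form, which a value per gene does not separate. For each of the 10 genes an exact two-sided permutation test of TPM could not go below 0.1, the smallest value that 3 against 3 libraries allow, and it reached 0.1 for Ddx58, Ifih1, Mavs, Eif2ak2 and Adar.

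**Figure D1:**
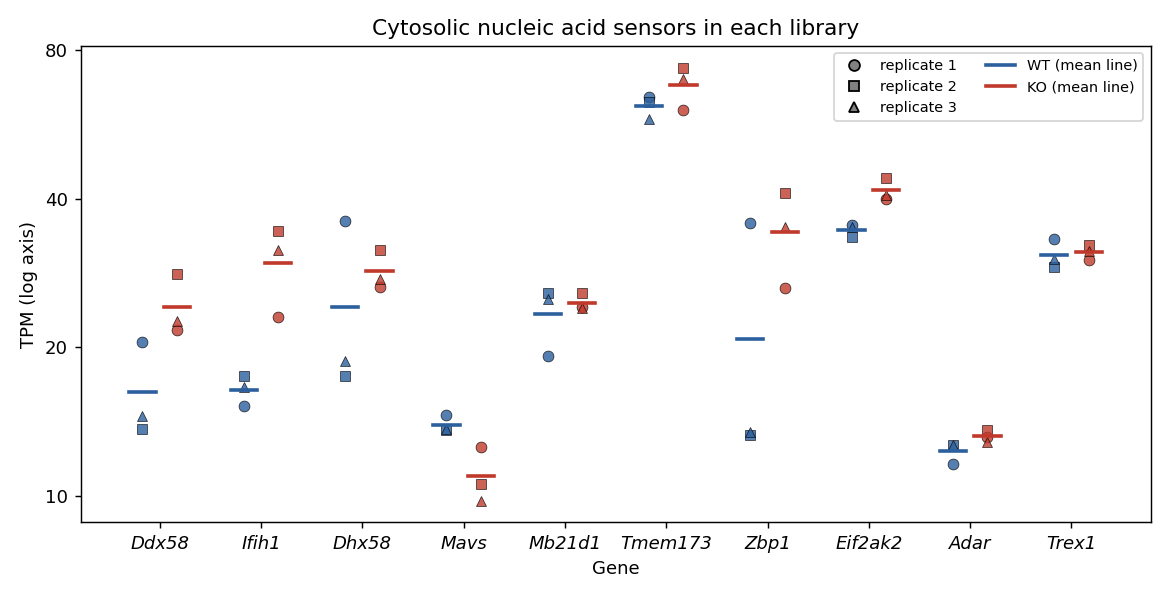
TPM (log axis) of the 10 sensor genes in each library, WT in blue and KO in red, with the replicate number as the marker shape and the group mean as a line. Ifih1 and Eif2ak2 show separate groups, while in Zbp1 and Dhx58 the circle of WT replicate 1 lies within or above the KO values.

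Read against all tested genes, the count of calls was near the background. The 2 genes that rose stand beside 12.9% of all tested genes, and the 0 that fell beside 6.11%. At an unadjusted p under 0.05, limma gave 3 higher (Ifih1, Eif2ak2 and Ddx58) and 1 lower (Mavs), beside 21.4% and 16.6% of all tested genes, which is again near the background. Among the 4498 tested genes with a mean between 12.5 and 64.8 TPM, the range of the 10 sensors, 9.58% were called higher and 7.07% lower. KO and WT did not overlap in 5 of the 10 sensors, 4 higher and 1 lower, beside 42.8% of all tested genes (23.4% higher and 19.5% lower). The median log2 fold change of the 10 was 0.20, against 0.01 over all tested genes, and 9 of the 10 were positive, beside 51.1% of all tested genes. Of these 9, Trex1 and Mb21d1 lay near 0. The sign of Trex1 turned under median scaling and without KO replicate 2 or WT replicate 2, and that of Mb21d1 without WT replicate 1.

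Which library was left out decided how many sensors were called. Without WT replicate 1, Ddx58, Ifih1, Dhx58, Zbp1 and Eif2ak2 were higher (5 of 10, beside 21.6% of all tested genes), and 0 were lower (14.2% of all), where limma gave an unadjusted p under 0.05 to 6 of the 10 and to 50.4% of all tested genes. Without replicate 1 of both groups, Tmem173 joined them (0.25, adjusted p = 0.0250) and Mavs was lower (-0.39, adjusted p = 0.0069), but 28.4% of all tested genes were then higher and 27.3% lower. Without KO replicate 2, KO replicate 3, WT replicate 2 or WT replicate 3, limma called 0 of the 10, with 3, 4, 4 and 3 at an unadjusted p under 0.05, beside 23.7%, 24.9%, 28.2% and 28.6% of all tested genes.

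**Figure D2:**
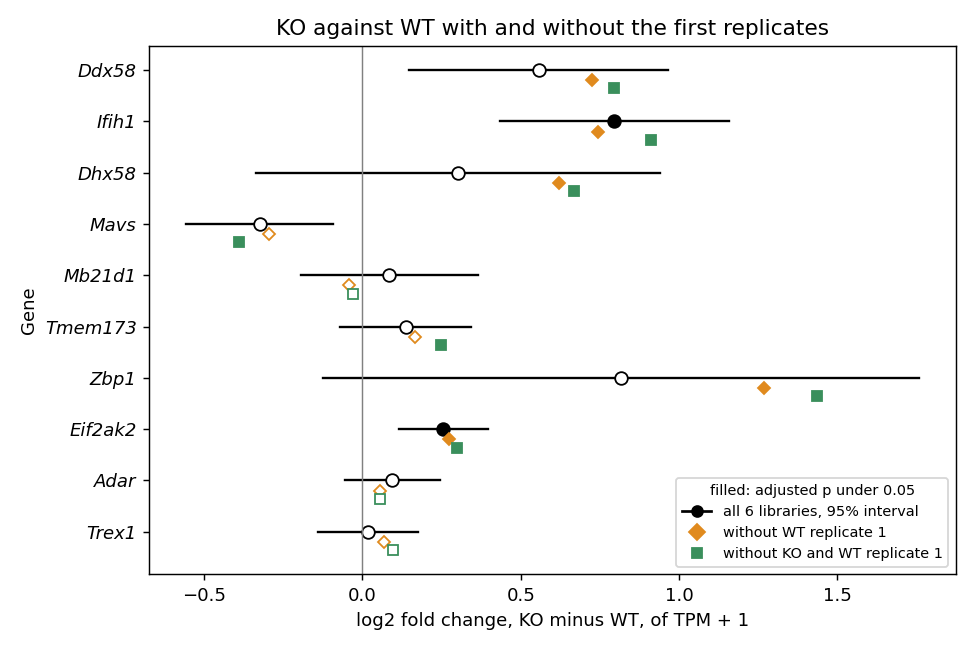
Difference of log2(TPM + 1) between KO and WT for each sensor gene, with the 95% interval for all 6 libraries and the values without WT replicate 1 and without replicate 1 of both groups. Filled symbols passed an adjusted p of 0.05. Zbp1 moves from 0.82 to 1.27 and 1.44 and Dhx58 from 0.30 to 0.62 and 0.67, while Ifih1 and Eif2ak2 are filled in all 3.

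WT replicate 1 differed from the other WT libraries in part of these genes. Its TPM was 2.66 times the mean of WT replicates 2 and 3 for Zbp1, 1.98 times for Dhx58 and 1.45 times for Ddx58, but 0.891 times for Ifih1 and 0.756 times for Mb21d1. It lay above both other WT libraries in 7 of the 10 sensors, beside 43.1% of all tested genes, and at 1.5 times their mean or more in 2 of the 10, beside 8.28%. In KO replicate 1 the ratio to the other KO libraries was 0.693 for Zbp1 and 0.698 for Ifih1, and 1.24 for Mavs. The summed TPM of 12 late granulocyte markers was 489 in WT replicate 1 against 119 and 151 in WT replicates 2 and 3, and 686, 1548 and 1381 in KO. Of the 12, 9 were tested, WT replicate 1 was at 1.5 times the other WT libraries or more in 6 of these 9, and 0 were at 0 in every library. Lcn2, with the highest mean, was at 194 TPM in WT replicate 1 and at 44.4 and 57 TPM in the others, while S100a8, the next, was at 50 against 37.2 and 47.6 TPM. Between the groups, 5 of the 9 late granulocyte markers tested rose in KO and 0 fell, beside 12.9% and 6.11% of all tested genes. Ly6g, Cxcr2, Mmp9 and Ngp overlapped between the groups and were not called. Of 12 monocyte and macrophage markers 6 were tested, of which 4 rose and 0 fell, beside the same shares of all tested genes. The sums of these 12 were 1078 to 1181 TPM in WT and 1297 to 1592 TPM in KO. Markers of other lineages rose too. These were 4 of 4 tested B cell markers, 3 of 5 erythroid, 2 of 4 stromal and endothelial and 1 of 1 T and NK cell markers. In each of these lists 0 fell, so the rise was not particular to myeloid markers. The part of any of these cells in the sensor values was not tested. Of 10 markers of plasmacytoid dendritic cells, which make much interferon, 5 were listed at 0 in every library, including Siglech and Ccr9. Bst2, also an interferon-stimulated gene, was at 226 to 259 TPM, Tcf4 and Runx2 lay between 4.6 and 9.7 TPM, and Irf8 fell, with 19.2 ± 6.96 TPM in KO against 41.3 ± 4.67 TPM in WT (SD, n = 3; adjusted p = 0.0276 in limma).

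**Figure D3:**
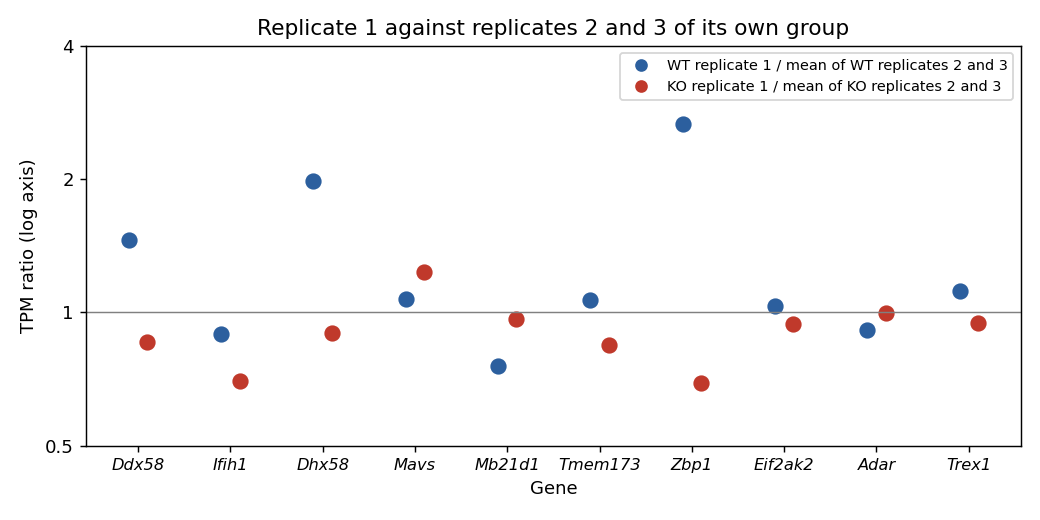
TPM of replicate 1 divided by the mean of replicates 2 and 3 of the same group (log axis), for WT in blue and KO in red. WT replicate 1 lies at 2.66 for Zbp1 and 1.98 for Dhx58, and KO replicate 1 at 0.693 for Zbp1 and 0.698 for Ifih1.

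The level of the sensors themselves can be ordered, since TPM is corrected for length. In WT, Tmem173 was highest at 61.6 ± 3.39 TPM, followed by Eif2ak2 at 34.6 ± 1.06 and Trex1 at 30.8 ± 2.07 TPM (SD, n = 3). Eif2ak2 and Trex1 were separated only narrowly, with 33.4 TPM as the lowest Eif2ak2 value and 33.1 TPM as the highest of Trex1. Dhx58, Mb21d1 and Zbp1 followed with means of 24.1, 23.3 and 20.8 TPM, their values overlapping one another, and those of Dhx58 and Zbp1, widened by WT replicate 1, also overlapped Eif2ak2, Trex1, Ifih1 and Ddx58. Zbp1 overlapped Mavs as well. Then came Ifih1 and Ddx58 at 16.4 and 16.2 TPM, which overlapped each other. Mavs at 14.0 TPM overlapped Ddx58, and Adar at 12.3 TPM lay below Mavs in every WT library. In KO, Tmem173 and Eif2ak2 again had the highest means, with Eif2ak2 overlapping Zbp1. Zbp1 (34.2), Trex1 (31.2), Ifih1 (29.6) and Dhx58 (28.5 TPM) overlapped one another, and Mavs was lowest at 11.0 ± 1.44 TPM.

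The genes whose pattern over the 6 libraries was most like that of the called sensors were found among 8896 tested genes averaging 5 TPM or more. For Ifih1 they were Fdx1, Armc7 and Fam222b (Pearson's r of log2(TPM + 1) 0.999, 0.999 and 0.998). For Eif2ak2 they were Mir1231, D16Ertd472e and Dscr3 (0.999, 0.995 and 0.994). These are descriptions over 6 libraries that fall into 2 groups, and Mir1231, a microRNA gene that a read would outrun, has an uncertain value.

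Promoter windows bear on these genes because several sensors are known targets of interferon, and not only those that rose. Adar, which was not called, also makes an interferon-inducible form. RefSeq windows of 250 bases before to 50 bases after each start (GRCm38.p6) were matched for 7 of the 10 genes; those of Dhx58, Tmem173 and Zbp1 were not matched. The windows were searched on both strands for an ISRE core, GAAA and GAAA with any 2 bases between them, and for TTCNNNGAA, the letters of the GAS element of interferon-responsive genes. A site with another spacing would be missed. The ISRE core was found in 3 of the 7 genes, Ddx58, Ifih1 and Eif2ak2, which had 1 window each. It was found in 3.44% of all 32851 windows and in 3.1% of the 11921 windows of tested genes. Some genes have more than 1 window, so a share of genes and a share of windows are unlike measures. The sites are shown because Ddx58, Ifih1 and Eif2ak2 share the core. They are on the strand of the gene, 5′ to 3′, with the matched letters in capitals.
Ddx58 (chr4:40239804-40239833, minus strand, match on the opposite strand): cctgaggcagTTTCGATTTCctatggccag
Ifih1 (chr2:62646206-62646233, minus strand): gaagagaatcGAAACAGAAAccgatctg
Eif2ak2 (chr17:78882535-78882564, minus strand): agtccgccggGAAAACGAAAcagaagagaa

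Counting the transcript's first base as position 1, the ISRE core lay at 3 to 12 in Ddx58, at 33 to 42 in Ifih1 and at 19 to 28 in Eif2ak2. All 3 matches lay downstream of the annotated start, in the first 50 transcribed bases. The GAS letters were found in 8.30% of all windows, and among the 7 genes in Eif2ak2 and in 1 of the 3 windows of Adar. In Eif2ak2 the ISRE and GAS letters did not overlap. The Eif2ak2 match, at positions -178 to -170, is shown beside its ISRE site as the other interferon element of the window.
Eif2ak2 (chr17:78882732-78882760, minus strand): ctgcagagctTTCCCAGAAtggaagccag

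A match is a description of letters and shows no binding. Outside the 10 sensors, 354 tested genes had an ISRE core in a window, of which 72 were higher (20.3%) and 13 lower (3.67%) in KO, beside 12.9% and 6.46% of the 9563 genes with a window. Mavs, Mb21d1 and Trex1 had neither motif in their windows.

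The genes around the sensors were described by 10 lists. Of 170 distinct genes tested, 19 rose and 10 fell, with a median log2 fold change of 0.03, beside 12.9% higher and 6.11% lower among all tested genes. The balance turned with the scaling, to 17 higher and 23 lower under median scaling and to 16 and 16 under quantile normalization. Without WT replicate 1 the counts were 47 and 24, beside 21.6% and 14.2% of all tested genes, and limma called 1, 0, 0 and 1 in all without KO replicate 2, KO replicate 3, WT replicate 2 and WT replicate 3. The lists differed in direction, and each is given by its counts and its median.

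Other RNA sensors and effectors held 4 genes that rose and 1 that fell of 19 tested (median 0.13), beside 12.9% and 6.11% of all tested genes. At an unadjusted p under 0.05, limma gave 7 higher and 3 lower, beside 21.4% and 16.6% of all tested genes. Oas1b, of the 2′-5′ oligoadenylate synthetase family that activates RNase L, rose from 7 ± 0.40 to 10.5 ± 0.65 TPM (SD, n = 3, adjusted p = 0.0142). Oas1g, of the same family, rose from 27.8 ± 1.08 to 36.4 ± 2.14 TPM (0.0174), and Oasl2, at 0.1 to 0.2 TPM in WT, reached 1.0, 2.3 and 2.1 TPM in KO (0.0160). Members of the Oas1 cluster are very similar in sequence, which makes the split of reads among them uncertain. Ifit2, which binds viral RNA, was the other that rose. Tarbp2, a double-stranded RNA-binding partner of PKR and Dicer, fell from 12.2 ± 0.53 to 10.1 ± 0.38 TPM (0.0394). Oas3 behaved like Zbp1, at 9.2 TPM in WT replicate 1 against 1.6 and 2.0 TPM in the other WT libraries and 5.7, 7.3 and 5.8 TPM in KO.

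Other DNA sensors and inflammasome genes leaned the other way, with 1 gene that rose and 5 that fell of 20 (median -0.15). The shares of all tested genes were 12.9% and 6.11%. Before adjustment, limma gave 1 higher and 9 lower at p under 0.05, beside 21.4% and 16.6% of all tested genes. Among those that fell were Ddx41, a helicase proposed as a DNA sensor, and Polr3d, Polr3e and Polr3g, subunits of RNA polymerase III, whose usual products are transfer RNA and 5S ribosomal RNA and which can also copy cytosolic DNA into RNA that RIG-I binds. Polr3e fell from 12.9 ± 0.81 to 8.83 ± 0.76 TPM (SD, n = 3, adjusted p = 0.0172), Polr3d from 20.7 ± 1.56 to 15.6 ± 0.32 TPM (0.0198) and Polr3g from 42.2 ± 1.77 to 31.2 ± 4.37 TPM (0.0355). Casp4, the caspase of the non-canonical inflammasome, rose from 12 ± 1.04 to 17.1 ± 1.79 TPM (0.0277). Aim2, the inflammasome's DNA sensor, was at 1.8 to 2.1 TPM in all 6 libraries. Nlrp3 was at 4.6 TPM in WT replicate 1 and at 0.4 to 1.2 TPM in the other 5 libraries.

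Regulators of the adaptors had calls in both directions, beside 12.9% higher and 6.11% lower among all tested genes. Of 21 regulators of RIG-I and MAVS, 1 rose and 0 fell (median 0.03). It was Cyld, a deubiquitinase, at 3.2, 3.7 and 3.4 TPM in the KO libraries and 2.6 to 2.7 TPM in WT (adjusted p = 0.0483). Before adjustment, limma gave 5 higher and 2 lower at p under 0.05, beside 21.4% and 16.6% of all tested genes. Of 20 regulators of cGAS and STING, 1 rose and 2 fell (median 0.02). At an unadjusted p under 0.05, limma gave 4 higher and 7 lower of these 20, beside the same 21.4% and 16.6%. Nmi, an interferon-inducible protein, rose from 1.67 ± 0.06 to 5.33 ± 1.39 TPM (SD, n = 3, adjusted p = 0.0142). Slc19a1, a folate carrier that also imports cyclic dinucleotides, fell from 18.3 ± 1.15 to 12.5 ± 2.19 TPM (0.0354), and Sec24c, a coat protein of the vesicles that carry STING from the endoplasmic reticulum, from 30.5 ± 0.95 to 25.4 ± 1.85 TPM (0.0458).

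Of 12 kinases and transcription factors below the adaptors, 1 rose and 0 fell (median -0.05). At an unadjusted p under 0.05, limma gave 1 higher and 1 lower, beside 21.4% and 16.6% of all tested genes. Ikbke, which encodes IKKε, rose from 12.9 ± 1.38 to 17 ± 0.69 TPM (SD, n = 3, adjusted p = 0.0334). Tbk1 was at 46.8 to 49.7 TPM in the KO libraries and 44.1 to 47.4 TPM in WT (0.390), and Irf3 at 35.7 to 35.9 and 36.2 to 38.5 TPM (0.530). Irf7, the interferon-inducible member of the pair, was at 2.5, 4.3 and 3.8 TPM in the KO libraries and 4.0, 0.9 and 1.0 TPM in WT, so that WT replicate 1 again lay among the KO libraries (0.216).

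Nucleases and nucleic acid modifiers gave no call in 21 genes (median -0.05). At an unadjusted p under 0.05, limma gave 2 higher and 5 lower, beside 21.4% and 16.6% of all tested genes. The nearest to the threshold were Xrn2, a nuclear exoribonuclease, at 36.8 ± 0.40 TPM in the KO libraries and 41.0 ± 1.12 TPM in WT (adjusted p = 0.0669), and Supv3l1, a mitochondrial RNA helicase, at 14.2 ± 1.46 and 17.3 ± 1.31 TPM (0.0859). Of 9 endosomal Toll-like receptor genes and adaptors tested, limma gave 2 higher and 2 lower at an unadjusted p under 0.05, beside the same shares. After adjustment 1 rose and 1 fell (median 0.04), beside 12.9% and 6.11% of all tested genes. These were Hsp90b1, a chaperone of the endoplasmic reticulum that folds Toll-like receptors, which rose from 1200 ± 58.5 to 1428 ± 65.4 TPM (0.0297), and its co-chaperone Cnpy3, which fell from 45.1 ± 1.27 to 32.7 ± 3.25 TPM (0.0189). Tlr3, Tlr7, Tlr8 and Tlr9 were at most 0.4 TPM in every library, and Tlr13 was at 67.5 TPM in WT replicate 1 and 26.2 to 41.8 TPM in the other 5. Of 14 partners of PKR and ZBP1 and other eIF2α kinases, 0 rose and 1 fell (median -0.06). It was Atf4, the transcription factor translated when eIF2α is phosphorylated, from 581 ± 23.5 to 470.0 ± 51.8 TPM (0.0481). Before adjustment, limma gave 3 higher and 1 lower of the 14 at p under 0.05, beside 21.4% and 16.6% of all tested genes.

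Interferon RNA was barely listed. Of 20 interferon ligand genes, 15 were at 0 TPM in all 6 libraries, Ifnb1 and Ifng among them, and the highest value of any was 1.0 TPM, for Ifnz in KO replicate 3. A value of 0 does not by itself show absence of RNA, since Xrcc5, a DNA repair gene that cells use broadly, was listed at no more than 0.1 TPM. Of 14 genes of interferon receptors and signalling tested, 3 rose and 0 fell (median 0.15). At an unadjusted p under 0.05, limma gave 6 higher and 0 lower, beside 21.4% and 16.6% of all tested genes. Usp18 and Socs1, feedback inhibitors of interferon signalling, rose from 1.17 ± 0.15 to 4.13 ± 1.5 TPM (SD, n = 3, adjusted p = 0.0242) and from 21.1 ± 1.92 to 28.6 ± 0.70 TPM (0.0197), and Ifnlr1 from 0.533 ± 0.06 to 1.20 ± 0.17 TPM (0.0234). Stat2 was at 18.2 to 19.9 TPM in the KO libraries and 15.4 to 16.7 TPM in WT (0.0502).

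Interferon output genes had the most calls of the 10 lists. Of 20 tested, 7 rose and 0 fell (13 and 0 at an unadjusted p under 0.05 in limma, beside 21.4% and 16.6% of all tested genes), with a median log2 fold change of 0.52, beside 12.9% higher and a median of 0.01 over all tested genes. Parp14, an ADP-ribosyltransferase, rose from 2.33 ± 0.12 to 4.27 ± 0.61 TPM (SD, n = 3, adjusted p = 0.0164), with Cxcl10 and Rsad2 as the genes with smaller adjusted p (0.0113 and 0.0152). The others were Trim30a, Herc6, Irgm1 and Sp100. In 5 of the 20 genes WT replicate 1 was at least 1.5 times the mean of the other WT libraries, beside 8.28% of all tested genes. Isg15, a ubiquitin-like modifier, was one of them, at 9.5 TPM in WT replicate 1, 2.2 and 3.2 TPM in the other WT libraries and 5.9, 7.8 and 6.5 TPM in KO. Without WT replicate 1, 15 of the 20 rose, beside 21.6% of all tested genes. Markers of other myeloid cells were higher in KO as well, among them the monocyte and macrophage markers Mpeg1 (from 4.97 to 35.7 TPM), Fcgr1 (from 2.93 to 24.7 TPM) and Cd14 (from 11.8 to 30.6 TPM), with limma adjusted p of 0.0142, 0.0113 and 0.0467. Markers of B, erythroid, stromal and T or NK cells rose too, as given above. The part of any of these cells in the interferon output values was not tested.

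**Figure D4:**
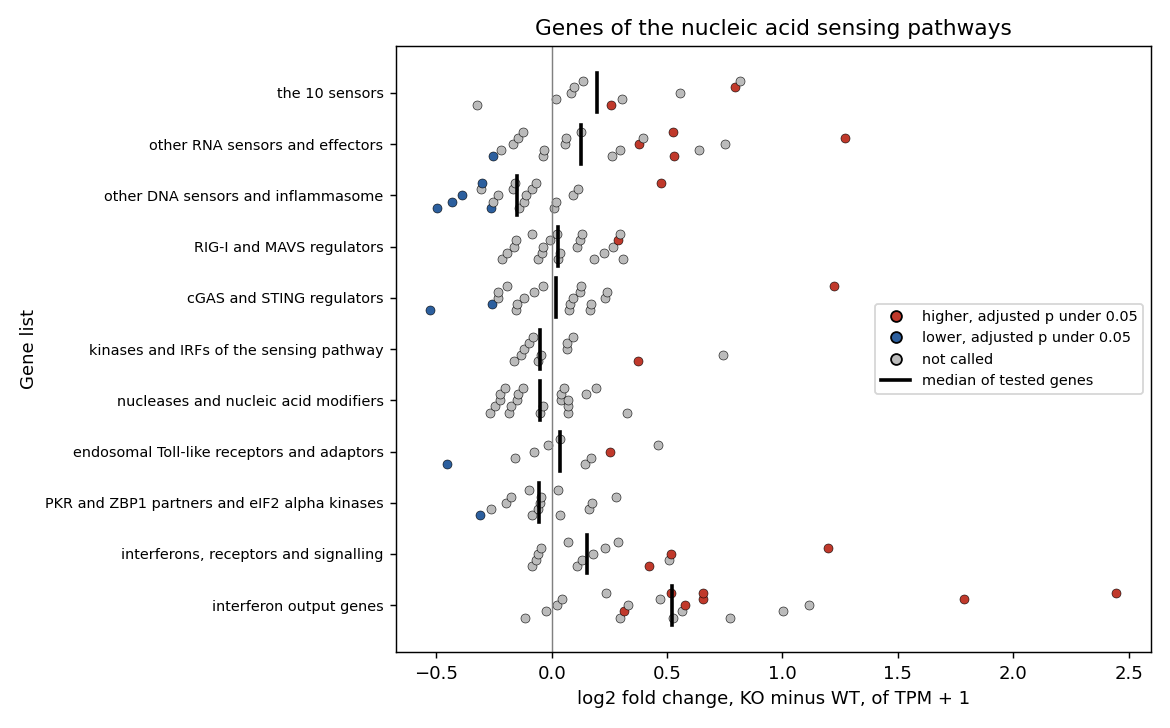
Difference of log2(TPM + 1) between KO and WT for each tested gene of the 10 sensors and the 10 lists, coloured by limma call, with the median of each as a black bar. Interferon output genes have a median of 0.52 and the sensors of 0.20, while other DNA sensors and inflammasome genes have a median of -0.15.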

How the data were processed

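The labels' genotype divides the 6 RNA-seq libraries into 3 KO and 3 WT. The submitters' processing notes name STAR 2.6.1e, featureCounts 1.6.2, Trim Galore 0.4.2 and cutadapt 1.9.1, and the mm10 build. The sources used here do not give the annotation, the strand setting or the step to TPM. The authors deposited TPM per gene with 1 decimal. Since TPM share a fixed total, a gain in abundant transcripts takes from the rest, and no depth remains for a count model.

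Of 35869 genes, 13575 reached 1 TPM in 3 or more libraries and were tested. The test was limma 3.58.1 in R 4.3.3, on log2(TPM + 1), of genotype alone. It used the eBayes trend, was two-sided, and was adjusted by Benjamini-Hochberg across the 13575 genes. The step was tested on simulated data. Replicates were averaged singly, since at most 8.48% of tested genes had equal TPM in 2 libraries of a group. Of 300 list symbols 298 were matched, 1 through a synonym. Positions came from GENCODE M21 and promoter windows from RefSeq, both on GRCm38, which mm10 names.

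The members and lists were chosen with earlier results of these data known. Named genes were the 10 members, Chaf1b, up to 3 called genes of each list by adjusted p in the majority direction and up to 2 in the other (2 nearest genes where none was called), and the 3 most alike genes of each called member. Oas3, Aim2, Nlrp3, Tbk1, Irf3, Irf7, Ddx41, Tlr3, Tlr7, Tlr8, Tlr9, Tlr13, Ifnb1, Ifng, Ifnz, Xrcc5, Stat2, Isg15, Ifit2, Gm26637, Trim30a, Herc6, Irgm1, Sp100, Atrip, Dhx58os and the markers other than Lcn2 and S100a8 were chosen after their values were seen. Results for some genes are not reported here. Alternatives were 3 other pseudocounts (0.1, 0.5 and 5), testing every gene, testing those averaging 5 TPM, median scaling, quantile normalization, no trend, array weights, a replicate block, each library left out, and replicate 1 of both groups left out.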

Additional observations from a re-analysis of the deposited data

How the results depend on the processing

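Over 17 alternatives Ifih1 kept its call in 13 and Eif2ak2 in 12, and both stayed higher in KO in all 17; Adar was called in none. Leaving out 1 library at a time moved the genes called from 0 to 4850, the sensors called from 0 to 5 and the pathway genes called from 0 to 71, and the log2 fold change from 0.68 to 0.96 for Ifih1, 0.21 to 0.28 for Eif2ak2, 0.45 to 0.73 for Ddx58, 0.12 to 0.62 for Dhx58, 0.59 to 1.27 for Zbp1, -0.42 to -0.25 for Mavs, -0.043 to 0.16 for Mb21d1, -0.021 to 0.069 for Trex1, 0.077 to 0.22 for Tmem173, 0.055 to 0.12 for Adar and -1.72 to -1.57 for Chaf1b; without KO replicate 3, 3381 genes had an unadjusted p under 0.05 in limma and 0 were called. Without replicate 1 of both groups, 7569 genes, 7 sensors and 116 pathway genes were called, with Ddx58 at 0.80, Dhx58 at 0.67, Zbp1 at 1.44, Tmem173 at 0.25, Mavs at -0.39 and Mb21d1 turned to -0.028. Array weights, where limma warned that its fit stopped before convergence, called 9429 genes, 7 sensors and 132 pathway genes, with Ddx58 at 0.67, Dhx58 at 0.56, Zbp1 at 1.32, Tmem173 at 0.25, Mavs at -0.41 and Mb21d1 at -0.038. Mavs was called under median scaling (-0.38) and quantile normalization (-0.41), which moved the median of all genes to -0.05 and -0.07 and the share of higher calls from 67.8% to 46.4% and 43.9%; Trex1 turned to -0.039 under median scaling. With a mean of at least 5 TPM 19 pathway genes were called. The cause of these shifts was not tested. After each group's mean was taken out, same-numbered KO and WT libraries correlated at r of -0.20, -0.15 and -0.16. With 3 libraries per group such values constrain one another and cannot exclude a pairing, which the labels do not give. With a replicate block 333 genes, 1 sensor and 3 pathway genes were called, and Eif2ak2 was at 0.26 (limma adjusted p = 0.112). Depth is unknown, and values rounded to 1 decimal limit genes near 1 TPM.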
